A study of Mus musculus with 11 samples.

Results

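The cells described here, called cycling, are T cells with transcripts of proliferation genes and no Foxp3 transcript. These cells were found in a droplet-based single-cell RNA library of sorted T cells. They were chosen by measured values of the library itself. A member was a barcode with at least 500 genes and under 10% mitochondrial unique molecular identifiers (UMIs), at least 2 UMIs of Cd3d, Cd3e and Cd3g together, no UMI of Foxp3 or of the B cell gene Cd79a, and a UMI of at least 2 of the 4 proliferation genes Mki67, Top2a, Birc5 and Cdk1. This rule found 713 cells among 8745 Foxp3-negative T cells, 13190 cells that passed the filters and 15002 barcodes in all, no barcode occurring more than once. They were set against the 537 Foxp3-positive T cells that met the same rule and against the 6481 Foxp3-negative T cells with no UMI of any of the 4 genes, called non-cycling here. The study concerns Sostdc1, a secreted Wnt and BMP antagonist, in follicular helper (Tfh) and follicular regulatory T cells. Its 11 samples form 8 groups, of which the single-cell library was used here and the bulk RNA and ATAC samples were not. Every group of cells compared below came from that 1 library and shares its source, draining lymph nodes of C57BL/6 mice heterozygous for a Sostdc1-EGFP reporter, sorted for CD4 and CD44. How many mice were pooled, their age and any immunization are not stated in the labels. With 1 library there is no replicate check, so no test was made, and every interval is an exact 95% interval that covers counting error only.

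A T cell that divides copies its DNA in S phase and separates the copies in mitosis, after the gap called G2. Origins of replication are licensed by the MCM helicase, the fork is run by polymerases and clamps, and new DNA is wrapped on histones whose genes are active during replication. Before mitosis, cyclin B and CDK1 drive condensation of the chromosomes, kinetochores attach them to the spindle, and the anaphase-promoting complex (APC/C) ends the process by marking cyclins for degradation. In a lymph node, proliferation follows recognition of antigen, whereas resting T cells that recirculate carry Ccr7 and Klf2.

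The rule genes were found in most members. Before any thinning, a Top2a UMI was present in 86.4% of the 713 cells, Mki67 in 85.3%, Birc5 in 79.5% and Cdk1 in 64.0%. Top2a encodes a DNA topoisomerase, Mki67 the proliferation antigen Ki-67, Birc5 the chromosomal passenger survivin and Cdk1 the mitotic kinase. All 4 genes were detected in 351 cells (49.2%), 3 in 119 (16.7%) and 2, the least the rule allows, in 243 (34.1%). In the cells just inside the rule, with 2 genes, Top2a was seen in 67.9%, Mki67 in 64.2%, Birc5 in 49.0% and Cdk1 in 18.9%. Just outside lay 1551 cells with 1 of the 4 genes, among which Top2a was seen in 43.9%, Mki67 in 23.9%, Birc5 in 20.8% and Cdk1 in 11.4%. Members made up 8.15% of Foxp3-negative T cells (7.59 to 8.75%), and cells under the same rule made up 20.7% of Foxp3-positive T cells (19.2 to 22.3%).

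Cycling cells held far more RNA. Their median was 15810 UMIs and 3513 genes per cell, against 5697 UMIs and 1711 genes in non-cycling cells, a ratio of 2.78 for UMIs. Median depth was 5697, 6189, 8510, 13059 and 21906 UMIs in cells with 0, 1, 2, 3 and 4 of the rule genes. More UMIs in a cell give each rule gene more chances to be seen. Each cell was therefore thinned at random to 3000 UMIs, which kept 698 cycling and 5989 non-cycling cells and left out 15 shallower cycling and 492 shallower non-cycling cells. With the rule applied to the thinned cells, 5.56% of Foxp3-negative T cells met it (5.07 to 6.08%), against 15.7% of Foxp3-positive T cells (14.3 to 17.2%). Of the 698 thinned members 64.9% still met the rule and 105 had no rule gene left. Levels below are UMIs of the thinned cells summed over a group, scaled to one common total of UMIs as CPM (of which 1 UMI is 0.478 in cycling cells). The rule genes stood at 564 CPM for Top2a, 445 CPM for Mki67, 398 CPM for Birc5 and 177 CPM for Cdk1 in cycling cells, and at 0 in non-cycling cells, as the rule fixes. Droplets with more than 1 cell could also be deep: 11.8% of cycling cells (9.51 to 14.4%) and 7.02% of non-cycling cells (6.41 to 7.67%) were among the 10% of cells with the highest doublet scores. Their part in the results was not tested beyond leaving those cells out, which left 630 higher and 158 lower genes in the comparison below.

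**Figure D1:**
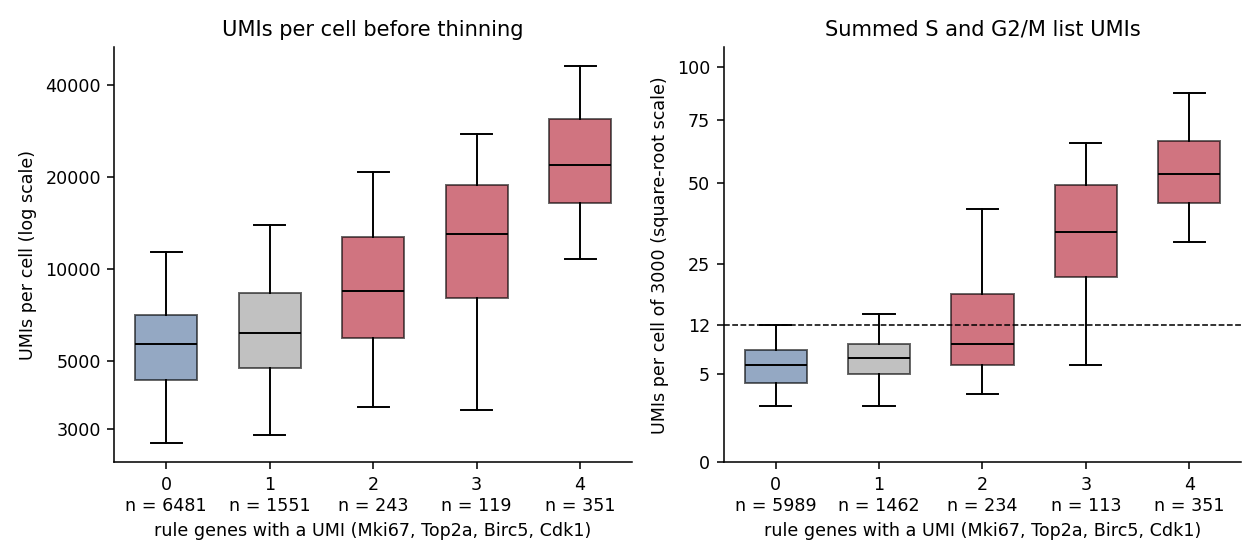
Boxes (median and quartiles, whiskers at the 5th and 95th percentiles) of UMIs per Foxp3-negative T cell before thinning on a log axis (left) and of the summed UMIs of the S and G2/M lists, which hold no rule gene, in cells thinned to 3000 UMIs on a square-root axis with a dashed line at 12 UMIs (right), by the number of rule genes detected. Median depth was 5697 UMIs with no rule gene and 21906 with 4, and the median sum was 6 UMIs with none and 53 with 4.

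The label was checked with genes that the rule did not use. The summed UMIs of an S phase list of 42 genes and a G2/M list of 48 genes had a median of 40 per cycling cell and 6 per non-cycling cell, each of 3000. The 95th percentile of non-cycling cells was 12 UMIs, and 532 of the 698 cycling cells, or 76.2% (72.9 to 79.3%), lay above it. Cells with all 4 rule genes were above this limit in 99.7% of cases and cells with 3 in 87.6%. Cells with 2 rule genes were above it in 35.5% of cases (29.3 to 42.0%), with a median sum of 9 UMIs, so 151 of these 234 cells lay in the range of most non-cycling cells. Cells with 1 rule gene were above it in 8.14% of cases. The T cell receptor gene Trac was seen in 83.8% of cycling and 84.2% of non-cycling cells at 3000 UMIs, against 9.18% of B cells. Members were chosen with Cd3 UMIs and the B cells without any, so this contrast is in part fixed by the choice. Cd4 was seen in 35.7% of cycling, 40.5% of non-cycling and 17 of 425 B cells. The B cells serve as a measure of free RNA that can understate T cell transcripts, because barcodes with a Cd3 UMI were left out. Their 425 thinned cells had a median of 4923 UMIs before thinning, against 16116 in cycling and 5872 in non-cycling cells.

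Of 5609 genes with at least 20 CPM in 1 or both groups, 612 (10.9%) were 2-fold or more higher in cycling than in non-cycling Foxp3-negative cells, and 126 (2.25%) were lower by that much, on a scale of log2(CPM + 1). The rule genes and the other genes of the gate were left out of these counts. Because the groups were divided by genes of the cell cycle, counts of cycle genes describe the cells and support nothing. All measured genes had a median log2 ratio of 0.17 (quartiles −0.23 and 0.58), and 82.9% of the genes past 2-fold were higher. Scaling the groups by the median of gene ratios moved the overall median to 0.02 and the share of higher genes to 68.1%. Of the 612 higher genes 216 belonged to lists of cell cycle or nucleotide synthesis genes and 396 did not. Of the 136 that were at least 10-fold higher, 111 belonged to these lists. The comparison was repeated against the 722 non-cycling cells with 8967 UMIs or more, the lower quartile of cycling cells, called the depth-matched reference below, which had a median of 11085 UMIs. Despite this name the match is partial, because the median of cycling cells was 15810 UMIs and their shallower cells were kept. The repeated comparison gave 504 higher and 114 lower genes, and 119 of the 152 named genes past 2-fold stayed past it.

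Replication genes were higher together. The highest log2 ratio outside the rule was that of Pclaf, whose product binds the replication clamp PCNA, at 622 CPM in cycling and 7.57 CPM in non-cycling cells, or 82.1-fold higher (68.8 to 98.7). It was seen in 61.6% of cycling and 2.24% of non-cycling cells. Of the 19 measured genes for origin licensing and firing 15 were at least 2-fold higher and 0 lower, with a median log2 ratio of 2.13. Cdc6, the factor that loads the helicase, stood at 33.0 CPM in cycling and 0.278 CPM in non-cycling cells, 118-fold higher (48.4 to 376). Mcm5, a subunit of that helicase, had 155 CPM in cycling and 12.1 CPM in non-cycling cells, 12.8-fold higher (10.7 to 15.3). At the fork, 27 of 30 measured genes were higher, with a median of 2.27. Clspn, the checkpoint mediator claspin, was 31.9-fold higher (24.0 to 43.1), and Lig1, the ligase that joins Okazaki fragments, 13.1-fold higher (11.1 to 15.4). Asf1b, a histone chaperone at the fork, had 135 CPM in cycling and 6.18 CPM in non-cycling cells.

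Nucleotide supply and histones showed the same direction. Of 23 nucleotide synthesis genes 13 were higher, with a median log2 ratio of 1.11. Rrm2, the cell cycle subunit of ribonucleotide reductase, had 270.3 CPM in cycling and 5.90 CPM in non-cycling cells, 45.8-fold higher (37.2 to 56.9). Tk1, thymidine kinase, was 46.0-fold higher (33.2 to 65.0), and Tyms, thymidylate synthase, stood at 198 CPM in cycling and 11.1 CPM in non-cycling cells, 17.8-fold higher. All 30 measured replication-dependent histone genes of 62 in the list were higher, with log2 ratios of 1.52 to 6.05. The linker histone gene Hist1h1b reached 1306 CPM in cycling cells, against 18.8 CPM in non-cycling cells. The H2A gene Hist1h2ap had 547 CPM in cycling and 7.85 CPM in non-cycling cells, 69.7-fold higher (58.5 to 83.7). Near-identical histone genes can share reads, and most of their transcripts end without the poly(A) tail that the kit primes on, so their levels are uncertain. Among histone variants and high-mobility group genes 12 of 18 were higher. Hmgb2, a DNA-bending chromatin protein, had 3100 CPM in cycling and 295 CPM in non-cycling cells, and H2afz, the H2A.Z variant, had 2447 CPM in cycling and 429 CPM in non-cycling cells.

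Mitotic genes showed the highest list medians beside histones. Of 35 kinetochore and spindle checkpoint genes 33 were higher, their median log2 ratio being 4.17, and of 31 spindle, kinesin and cytokinesis genes 30 were, with a median of 3.82. Cenpf, a kinetochore protein, had 142 CPM in cycling and 2.45 CPM in non-cycling cells, 57.9-fold higher (42.1 to 81.4). Hmmr, a spindle assembly factor, was 72.5-fold higher (49.2 to 111), and Tpx2, which targets Aurora A to the spindle, 63.6-fold higher (44.3 to 93.9). Stmn1, the microtubule destabilizer stathmin, was seen in 69.5% of cycling and 7.25% of non-cycling cells. Of 15 genes for cyclins, CDKs and Cdc25 phosphatases 13 were higher, among them the mitotic cyclin Ccnb2 at 216 CPM in cycling and 4.34 CPM in non-cycling cells, 49.7-fold higher (39.0 to 64.1). Ccna2, the cyclin of S phase and G2, was 44.8-fold higher (33.3 to 61.4), and Ccne2, the cyclin of entry into S phase, 41.6-fold higher (22.7 to 82.4).

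Lists that also hold constitutive genes were split. Of 18 APC/C and separase genes 7 were higher, with a median log2 ratio of 0.63. They included Ube2c, the conjugating enzyme of the complex, at 350.0 CPM in cycling and 7.24 CPM in non-cycling cells, and its activator Cdc20, 25.7-fold higher (19.8 to 33.7). Of 18 condensin and cohesin genes 9 were higher, with Esco2, which acetylates cohesin during replication, at 70.2 CPM in cycling and 0.668 CPM in non-cycling cells. Of 18 repair genes 11 were higher. Of 20 chromatin modifiers 4 were higher and 1 lower, beside 10.9% higher and 2.25% lower among all genes measured. Ezh2, the Polycomb methyltransferase, was 4.68-fold higher (4.09 to 5.35), Dnmt1, the maintenance DNA methyltransferase, 3.75-fold higher (3.27 to 4.30), and Kdm5b, a histone demethylase, 2.76-fold lower (1.93 to 4.10).

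The regulators of cell cycle transcription were less abundant. Of 11 measured E2F and DREAM genes 6 were higher. The repressor E2f8 had 36.8 CPM in cycling and 0.501 CPM in non-cycling cells, and the activator E2f1 had 27.2 CPM in cycling and 1.89 CPM in non-cycling cells. Foxm1, which drives G2/M genes, had 21.5 CPM in cycling and 0.891 CPM in non-cycling cells, and Mybl2, a partner of the MuvB complex, 21.5 CPM in cycling and 0.557 CPM in non-cycling cells. Against the depth-matched reference the log2 ratio of E2f8 was 3.99 in place of 4.65 and that of Mybl2 3.24 in place of 3.85, while Pclaf was at 6.92 in place of 6.18 and Ccna2 at 5.80 in place of 5.08. Among 19 CDK inhibitors, pocket proteins and antiproliferative genes 2 were higher and 4 lower, beside 10.9% higher and 2.25% lower among all genes measured. The median of this list, −0.34, turned to 0.09 against the depth-matched reference. The higher ones were Cdkn3, a phosphatase that acts on CDKs, 43.2-fold (29.0 to 66.2), and Cdkn2c, the inhibitor p18, 6.26-fold (5.12 to 7.63). Btg1, an antiproliferative factor, had 472 CPM in cycling and 1181 CPM in non-cycling cells, 2.50-fold lower (2.35 to 2.67), and its log2 ratio of −1.32 became −0.88 against the depth-matched reference. Foxp1, which keeps T cells quiescent, was 2.39-fold lower (2.08 to 2.77). Among the highest genes in none of these lists was Pbk, a mitotic kinase, at 44.9 CPM in cycling and 0.501 CPM in non-cycling cells.

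**Figure D2:**
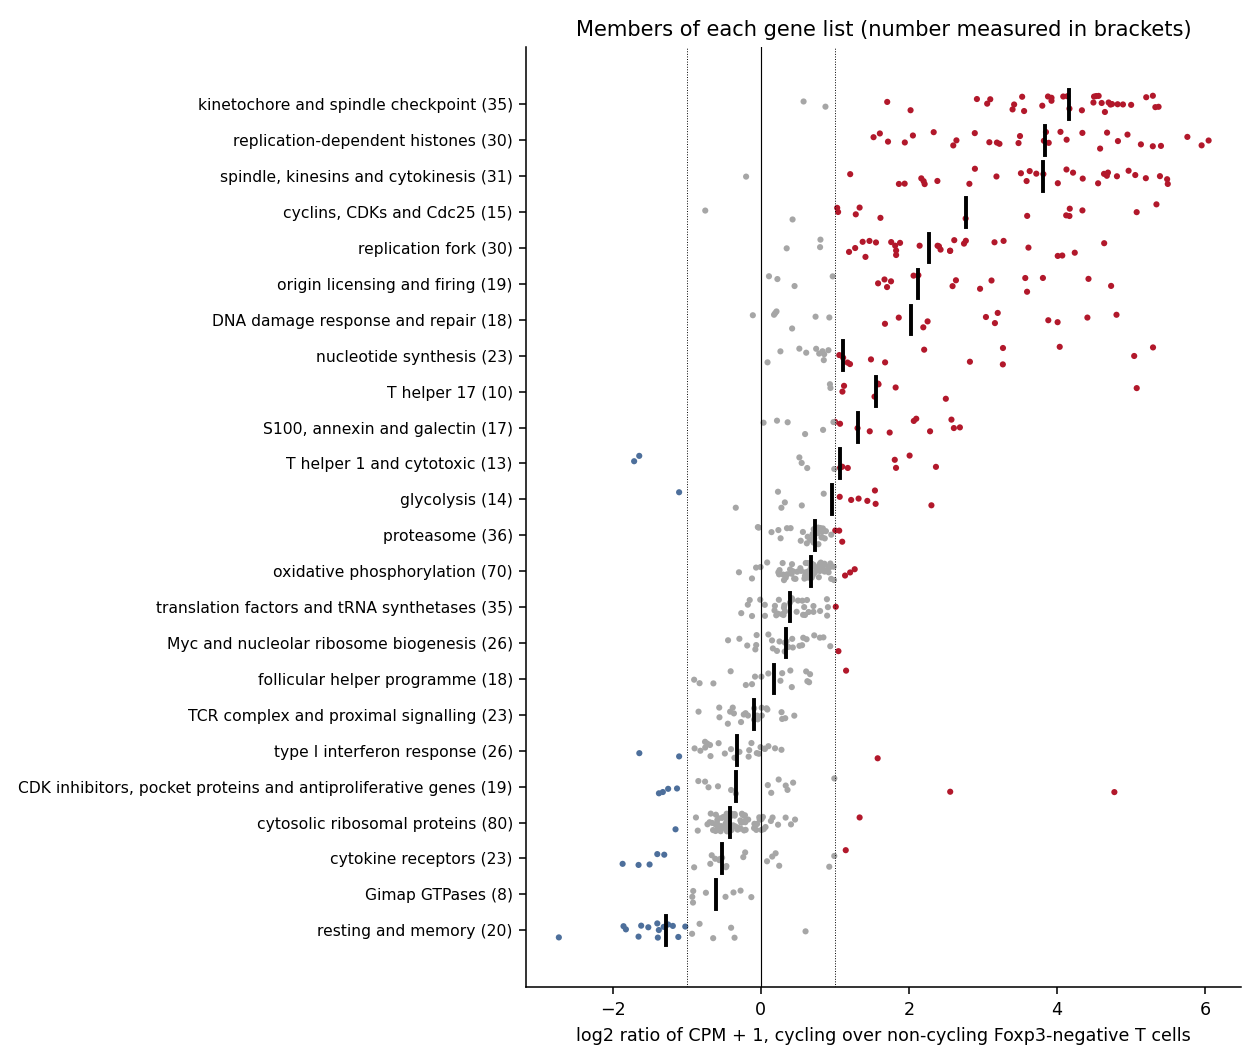
Each point is a gene with at least 20 CPM in 1 or both groups, placed by its log2 ratio of CPM + 1 in cycling over non-cycling Foxp3-negative T cells (x axis) within its list (rows, with the number of genes); bars are medians. Kinetochore, histone and spindle lists lie highest with medians of 4.17, 3.84 and 3.82, and the resting and memory list lies lowest with −1.28.

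Promoter letters differed between the mitosis and the replication genes. RefSeq windows of 300 bases, from 250 before to 50 after the start of a gene (build GRCm38.p6), were searched on both strands for TTTGAA, the cell cycle homology region (CHR) of DREAM and MuvB target genes, for CCAAT, the NF-Y box, and for the E2F motifs TTTCCCGC, TTTGGCGC, TTTCGCGC and TTTGCCGC. Matches of the E2F motifs can overlap each other. Of the 83 higher genes of the mitosis lists 73 had a window, 79 windows in all, and of the 66 higher genes of the replication and repair lists 56 had one, 67 windows in all. TTTGAA lay in 53.2% of mitosis and 16.4% of replication and repair windows, against 12.7% of the windows of all measured genes and 17.9% of all 32851 windows. An E2F motif lay in 10.1% of mitosis and 26.9% of replication and repair windows, against 4.63% for measured genes and 2.26% of all. CCAAT lay in 70.9% of mitosis and 53.7% of replication and repair windows, against 37.8% for measured genes and 37.4% of all. TTTGAA together with CCAAT was found in 43.0% of mitosis and 5.97% of replication and repair windows, against 6.95% of all. In the 127 windows of genes lower in cycling cells TTTGAA lay in 11.8% and an E2F motif in 0.787%. These matches describe letters in genes chosen for their list and level and show no binding. The windows of the cyclin gene Ccnb2, of the rule gene Cdk1 and of the helicase gene Mcm5 are printed because they hold the motifs in different combinations, with capitals marking the matches and each window read 5′ to 3′ on the strand of the gene.
Ccnb2, chr9:70421505-70421804, minus strand: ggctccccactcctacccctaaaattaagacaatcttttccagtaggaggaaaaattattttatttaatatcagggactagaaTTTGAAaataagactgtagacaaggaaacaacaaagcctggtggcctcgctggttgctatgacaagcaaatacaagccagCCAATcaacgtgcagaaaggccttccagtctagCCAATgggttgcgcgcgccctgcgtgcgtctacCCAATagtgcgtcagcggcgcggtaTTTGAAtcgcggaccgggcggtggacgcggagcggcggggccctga
Cdk1, chr10:69352863-69353162, minus strand: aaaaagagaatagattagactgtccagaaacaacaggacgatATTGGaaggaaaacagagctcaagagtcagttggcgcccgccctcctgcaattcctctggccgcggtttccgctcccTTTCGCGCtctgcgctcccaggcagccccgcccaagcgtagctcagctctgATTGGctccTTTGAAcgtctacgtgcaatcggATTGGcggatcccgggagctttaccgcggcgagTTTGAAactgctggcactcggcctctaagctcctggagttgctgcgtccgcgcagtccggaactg
Mcm5, chr8:75109259-75109558, plus strand: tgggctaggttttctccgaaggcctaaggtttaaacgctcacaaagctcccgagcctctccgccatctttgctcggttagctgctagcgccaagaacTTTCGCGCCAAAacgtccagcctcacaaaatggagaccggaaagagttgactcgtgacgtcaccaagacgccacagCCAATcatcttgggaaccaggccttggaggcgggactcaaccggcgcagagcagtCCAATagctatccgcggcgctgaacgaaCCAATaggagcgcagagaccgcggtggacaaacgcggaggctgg
The Ccnb2 window holds TTTGAA and CCAAT with no match to the E2F motifs, the Cdk1 window holds all 3 kinds, and the Mcm5 window holds CCAAT and 2 overlapping E2F motifs with no TTTGAA.

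Levels followed the number of rule genes detected, also for genes that the rule did not use. Pclaf had 7.57, 12.3, 101, 552 and 991 CPM in thinned cells with 0, 1, 2, 3 and 4 rule genes. Hist1h1b had 18.8, 19.6, 109.7, 460.2 and 2376 CPM and was highest in cells with all 4. Ccnb2 was already at 124 CPM in cells with 2 rule genes and at 264 CPM in cells with 4. Rrm2 behaved otherwise, with 15.7 CPM at 2 genes and 455 CPM at 4. In the other direction, Igfbp4 had 325, 212, 105, 11.8 and 21.8 CPM and Ccr7 189, 148, 101, 67.8 and 32.3 CPM. Cxcr6, a chemokine receptor of effector T cells, stood at 48.9, 99.6, 212, 218 and 186 CPM and so was not higher in cells with 4 rule genes than in cells with 2. Depth before thinning differs along the same order, as given above.

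Most lists of metabolic and growth genes had medians above the log2 ratio of 0.17 of all genes measured. Of all genes measured, 10.9% were 2-fold or more higher. The oxidative phosphorylation, proteasome, citrate cycle, translation and ribosome biogenesis lists below had smaller shares past 2-fold than that. In glycolysis 7 of 14 genes were higher and 1 lower, with a median log2 ratio of 0.96. Tpi1, triosephosphate isomerase, had 289 CPM in cycling and 57.8 CPM in non-cycling cells, 5.01-fold higher (4.52 to 5.54), and its log2 ratio of 2.30 became 1.44 against the depth-matched reference. Gapdh was 2.93-fold higher (2.84 to 3.03), but its log2 ratio of 1.55 became 0.99 against the depth-matched reference. Of 70 oxidative phosphorylation genes encoded in the nucleus 66 had a ratio above 0 and 3 passed 2-fold, with a median of 0.68. Cox5a, a subunit of cytochrome oxidase, had 619 CPM in cycling and 256 CPM in non-cycling cells. The 13 genes of the mitochondrial genome lay the other way, 12 of them below 0 with a median of −0.30. Proteasome genes had 3 of 36 past 2-fold and a median of 0.73, chaperones 3 of 23 and 0.55, citrate cycle genes 2 of 24 and 0.44, and translation factors and tRNA synthetases 1 of 35 and 0.39. Of 13 cholesterol and fatty acid synthesis genes 3 were higher, among them Cyp51, a sterol demethylase, at 37.7 CPM in cycling and 10.9 CPM in non-cycling cells. In the joint list of Myc and nucleolar ribosome biogenesis genes 1 of 26 passed 2-fold. This was Odc1, the polyamine enzyme, at 257 CPM in cycling and 124 CPM in non-cycling cells. Against the depth-matched reference Cox5a (0.95), Odc1 (0.74) and all 3 proteasome genes no longer reached 2-fold. Of the 80 cytosolic ribosomal protein genes 12 had a ratio above 0, with a median of −0.41.

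Genes of resting and recirculating T cells made up 14 of the 126 lower genes. Of the 20 in that list 14 were lower and 0 higher, with a median of −1.28. Igfbp4, an insulin-like growth factor binding protein of resting T cells, had the lowest log2 ratio measured, with 48.2 CPM in cycling and 325 CPM in non-cycling cells, 6.73-fold lower (5.53 to 8.28). Bach2, a repressor that restrains effector differentiation, was 3.75-fold lower (2.50 to 5.89). The survival gene Bcl2 had 57.8 CPM in cycling and 184 CPM in non-cycling cells, and Ccr7, the receptor for T cell zone chemokines, 61.1 CPM in cycling and 189 CPM in non-cycling cells. Of 23 cytokine receptor and signalling genes 5 were lower and 1 higher, beside 2.25% lower and 10.9% higher among all genes measured. Il4ra, the interleukin 4 receptor, stood at 10.0 CPM in cycling and 39.2 CPM in non-cycling cells, 3.91-fold lower (2.54 to 6.35). Il7r, the receptor for the homeostatic cytokine interleukin 7, had 109 CPM in cycling and 289.6 CPM in non-cycling cells, a log2 ratio of −1.40 that became −0.72 against the depth-matched reference. Pik3ip1, an inhibitor of PI3 kinase, was 4.58-fold lower (3.17 to 6.87), and Ly6c1, a surface protein of memory T cells, 6.29-fold lower (4.39 to 9.35). All 8 Gimap GTPases, which serve lymphocyte survival, had ratios below 0 without passing 2-fold, with a median of −0.61. None of 23 T cell receptor signalling genes reached 2-fold, and their median was −0.09.

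Effector genes were among the higher genes outside the cell cycle. Of 17 genes for S100 proteins, annexins and galectins, a list that also holds Vim and Ahnak, 11 were higher. Among the 11 were S100a8 and S100a9, granulocyte genes with 361 of 381 and 427 of 437 UMIs in 1 cycling cell. Without that cell their log2 ratios were −3.11 and −3.44. Here and below, a top cell was left out of the cycling group alone, so these ratios do not show lower levels in cycling cells. On the other side, 1 non-cycling cell held 766 of 1621 UMIs of S100a8 and 1 held 793 of 1109 of S100a9. Lgals1, encoding galectin-1, had 2306 CPM in cycling and 357 CPM in non-cycling cells, 6.46-fold higher (6.23 to 6.71), and was seen in 80.1% of cycling and 42.6% of non-cycling cells. Anxa2, an annexin, was 6.21-fold higher (5.57 to 6.93), and Lgals3, galectin-3, 6.07-fold higher (5.44 to 6.77). Against the depth-matched reference the log2 ratio of Lgals1 was 1.92 in place of 2.69, that of Anxa2 1.91 in place of 2.61 and that of Lgals3 1.51 in place of 2.58. Of 13 T helper 1 and cytotoxic genes 7 were higher and 2 lower. Cxcr6 had 200.1 CPM in cycling and 48.9 CPM in non-cycling cells, 4.09-fold higher (3.63 to 4.60), and a UMI in 26.1% of cycling, 6.73% of non-cycling and 0.471% of B cells. Its log2 ratio of 2.01 became 1.41 against the depth-matched reference. Ccr2, a receptor for inflammatory chemokines, had 128 CPM in cycling and 38.7 CPM in non-cycling cells, 3.32-fold higher (2.87 to 3.83). Ifng, interferon gamma, stood at 40.6 CPM in cycling and 7.07 CPM in non-cycling cells, with 22 of 85 UMIs in 1 cell, and its log2 ratio of 2.37 was 1.95 without that cell and 1.13 against the depth-matched reference. Prf1, the cytotoxic pore protein, was 3.54-fold lower (2.22 to 6.01). Of 14 apoptosis regulators 3 were higher and 1 lower, and of 19 homing genes 2 were higher and 2 lower. Among all genes measured, 10.9% were higher and 2.25% lower, so the count of higher homing genes was near that share.

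Of the 10 measured T helper 17 genes 8 were higher, with a median log2 ratio of 1.56 that became 0.78 against the depth-matched reference. Ltb4r1, a leukotriene receptor, had 48.7 CPM in cycling and 7.79 CPM in non-cycling cells, 6.25-fold higher (4.80 to 8.13). Tmem176a, a membrane protein of T helper 17 cells, was 3.62-fold higher (3.08 to 4.24). The cytokine gene Il22 had 41.1 CPM in cycling and 12.97 CPM in non-cycling cells, but its log2 ratio of 1.59 was 0.05 against the depth-matched reference. Ccl20 rested on 1 cell that held 103 of 104 UMIs, and without it the log2 ratio was −0.02. Il17a, the cytokine interleukin 17A, had 37 of 50 UMIs in 1 cycling cell and 70 of 187 in 1 non-cycling cell. With the cycling cell alone left out its log2 ratio was −0.66. An Il17a UMI was seen in 1.29% of cycling (0.591 to 2.43%) and 0.417% of non-cycling cells (0.270 to 0.616%). Of 9 regulatory T cell genes 2 were higher, Il2ra, the interleukin 2 receptor alpha chain, 2.28-fold (1.80 to 2.86), and Capg, an actin-capping protein, 2.77-fold (2.57 to 2.99). The log2 ratio of Il2ra, 1.15, was 0.75 in the lowest of the alternative settings, under 2-fold. Type I interferon genes had 1 of 26 higher and 2 lower, with a median of −0.32. The shares among all genes measured were 10.9% higher and 2.25% lower. None of 3 T helper 2 or 7 coinhibitory genes passed 2-fold, and of 15 immediate early genes 1 did, Jun, which was 2.50-fold lower (2.08 to 3.02) and at a log2 ratio of −0.96 against the depth-matched reference.

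Of 18 measured Tfh genes 1 was higher and 0 lower, near the 10.9% higher and 2.25% lower among all genes measured, with a median of 0.18 that turned to −0.14 against the depth-matched reference and to −0.07 with at least 3 rule genes. The gene past 2-fold was Il21, the cytokine that supports germinal centre B cells, at 27.7 CPM in cycling and 11.9 CPM in non-cycling cells, 2.33-fold higher (1.71 to 3.12). Its log2 ratio of 1.15 became 0.37 against the depth-matched reference. Pdcd1, encoding PD-1, had 91.2 CPM in cycling and 58.6 CPM in non-cycling cells and was seen in 20.2% of cycling, 11.5% of non-cycling and 0 of 425 B cells, where a limit of 3 cells allows a share of up to 0.706%. Cxcr5, the follicle homing receptor, had 42.0 CPM in cycling and 45.7 CPM in non-cycling cells, and Bcl6, the lineage factor, 14.8 CPM in cycling and 17.3 CPM in non-cycling cells. Sostdc1 was seen in 14 of 698 cycling cells, or 2.01% (1.10 to 3.34%), in 2.09% of non-cycling cells (1.74 to 2.48%) and in 0.941% of B cells (0.257 to 2.39%). These intervals overlap, so a difference in the share of cells with a Sostdc1 UMI was not detectable at this depth. Its summed level was 10.0 CPM in cycling and 17.6 CPM in non-cycling cells, 1.76-fold lower (1.13 to 2.88), with 5 of 21 UMIs in 1 cycling cell, and the log2 ratio of −0.76 turned to 0.34 among cells with under 5% mitochondrial UMIs.

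Cells were also assigned by genes outside the rule to gates, read at 3000 UMIs in both groups. A T helper 1 and cytotoxic gate (at least 2 of Tbx21, Ifng, Cxcr3, Ccl5, Gzmk, Eomes and Nkg7) held 10.2% of cycling and 5.86% of non-cycling cells, and 8.45% of the depth-matched reference, which lies within the interval of 8.03 to 12.7% of cycling cells. Cells with a UMI of both Cxcr5 and Pdcd1, the Tfh gate, were 5.16% of cycling cells (3.64 to 7.07%) and 3.61% of non-cycling cells (3.15 to 4.11%). They were 3.88% of the depth-matched reference. Cells with Pdcd1 but not Cxcr5 were 15.04% of cycling cells (12.5 to 17.9%), 7.86% of non-cycling cells and 9.83% of the depth-matched reference. An interferon gate held 15.04% of cycling and 23.5% of non-cycling cells, and a recently stimulated gate 2.44% of cycling and 2.49% of non-cycling cells. In the depth-matched reference these gates held 24.7% and 2.77%.

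Read the other way, the share of Foxp3-negative T cells that met the cycling rule at 3000 UMIs was 9.02% (6.70 to 11.8%) inside the T helper 1 and cytotoxic gate, against 5.32% outside it. It was 7.29% (4.73 to 10.7%) inside the Tfh gate, against 5.49% outside it. A gate reads sparse transcripts, so its share is of cells with a UMI and not of cells that make a protein.

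**Figure D3:**
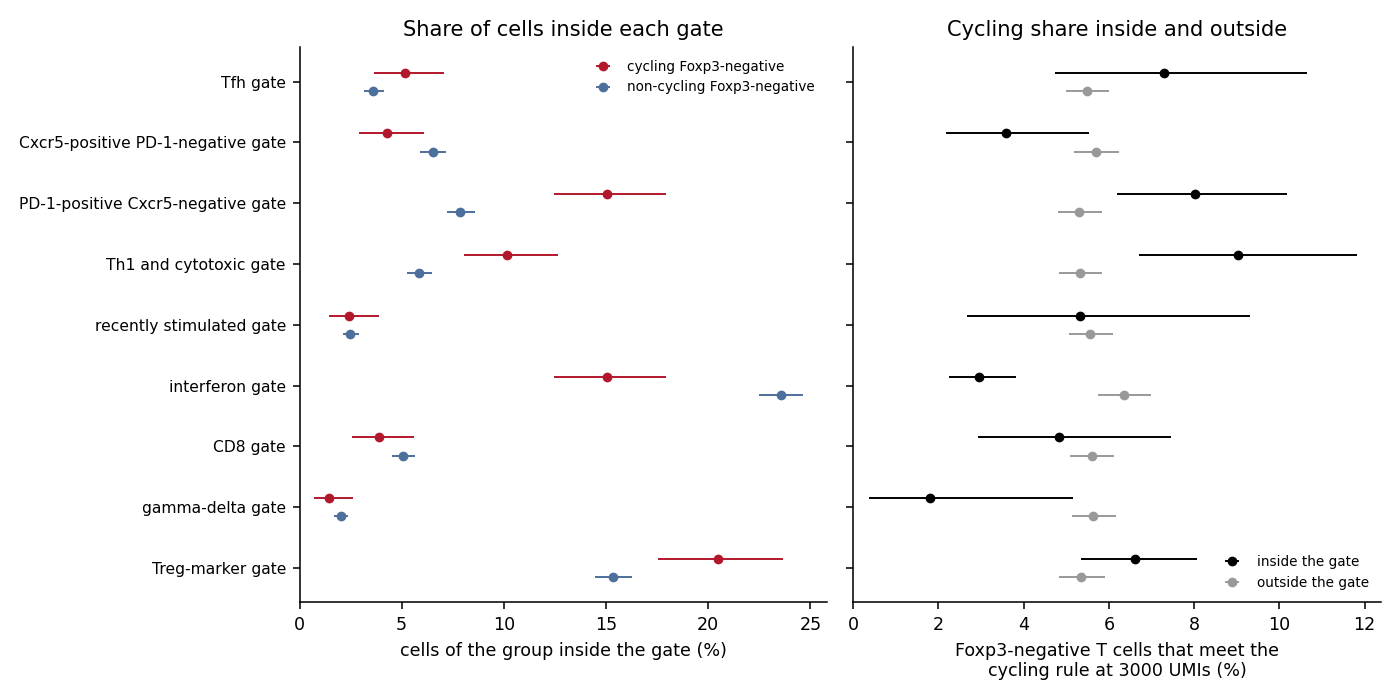
Left, share of cycling and non-cycling Foxp3-negative T cells inside each gate at 3000 UMIs, and right, share of Foxp3-negative T cells inside and outside each gate that met the cycling rule at 3000 UMIs, all with exact 95% intervals. The interferon gate held 15.04% of cycling and 23.5% of non-cycling cells, and 9.02% of cells in the T helper 1 and cytotoxic gate met the rule.

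Among themselves the cycling cells spread from S-heavy to G2/M-heavy profiles. In thinned cells the S list had a median of 11 UMIs and the G2/M list 23, against 2 and 4 in non-cycling cells. The S sum was the larger in 137 cells, or 19.6% (16.7 to 22.8%), the G2/M sum in 530 (75.9%), and both were equal in 31, while 141 cells lay within 2 UMIs of equality. The G2/M sum was also the larger in 73.7% of non-cycling cells. With the mean of non-cycling cells subtracted from each sum, 34.96% of cycling cells (31.4 to 38.6%) leaned to S. These classes are ranges of a score and not cell types. With the score genes left out, 220 of 5596 genes (3.93%) were 2-fold or more higher in S-leaning than in G2/M-leaning cells and 222 (3.97%) were lower by that much.

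**Figure D4:**
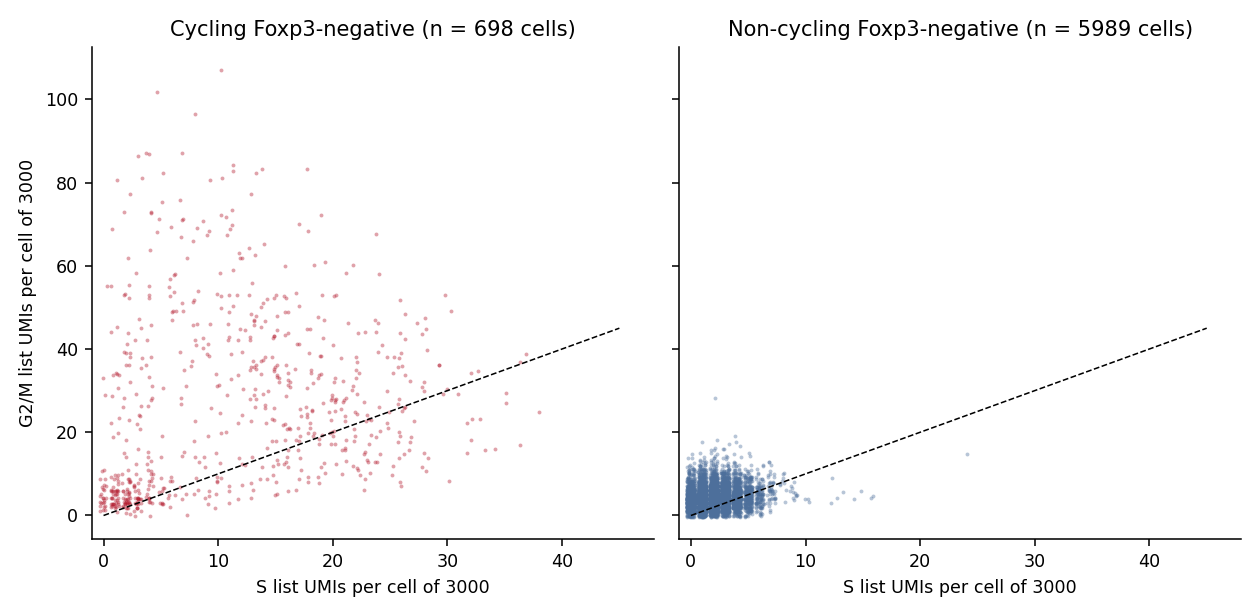
Summed UMIs of the S list (x axis) against the G2/M list (y axis) per thinned cell of 3000 UMIs, 698 cycling cells on the left and 5989 non-cycling cells on the right, with a small random offset. Cycling cells spread to high values of either sum, with medians of 11 and 23 UMIs, while non-cycling cells have medians of 2 and 4.

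Genes of origin licensing outside the score lists summed to 1173 CPM in S-leaning and 728 CPM in G2/M-leaning cycling cells, and kinetochore genes to 939 CPM in S-leaning and 1682 CPM in G2/M-leaning cells. With classes from the excess over non-cycling cells, licensing genes were at 885 CPM (818 to 956) in S-leaning and 779 CPM (733 to 827) in G2/M-leaning cells. These intervals overlap. Kinetochore genes were at 801 CPM in S-leaning and 1870.0 CPM in G2/M-leaning cells. The same classes were also read among cells above the score limit. There licensing genes were at 1329 CPM (1225 to 1439) in S-leaning and 887 CPM (833 to 943) in G2/M-leaning cells. E2f1 had 51.1 CPM in S-leaning and 20.8 CPM in G2/M-leaning cells, 2.46-fold higher in S-leaning cells (1.35 to 4.38). Ccnb1, a mitotic cyclin B, had 24.3 CPM in S-leaning and 116 CPM in G2/M-leaning cells, 4.78-fold lower in S-leaning cells (2.54 to 10.1). Histone levels lay on the side of G2/M. The 62 replication-dependent histone genes summed to 3161 CPM (2991 to 3337) in S-leaning and 6219 CPM (6097 to 6343) in G2/M-leaning cells, 1.97-fold lower in S-leaning cells, and 17 of 32 measured ones were 2-fold or more lower. Hist1h1b had 922 CPM in S-leaning and 1455 CPM in G2/M-leaning cells, and Hist1h2ap 277 CPM in S-leaning and 643 CPM in G2/M-leaning cells. The direction of the histone sum was the same with classes from the excess over non-cycling cells, at 2940 CPM in S-leaning and 6758 CPM in G2/M-leaning cells, and with cells above the score limit alone, at 3774 CPM in S-leaning and 7967 CPM in G2/M-leaning cells. S-leaning cells had a median of 18366 UMIs and G2/M-leaning cells 15326 before thinning. Slc7a5, an amino acid transporter of growing T cells, had 31.6 CPM in S-leaning and 4.403 CPM in G2/M-leaning cells, 7.18-fold higher in S-leaning cells (2.66 to 21.3). Dctd, a deaminase that supplies deoxyuridylate for thymidylate synthesis, had 21.9 CPM in S-leaning and 1.89 CPM in G2/M-leaning cells, 11.6-fold higher (2.90 to 66.6). Arhgap19, a GTPase-activating protein of mitosis, had 0 CPM in S-leaning cells (interval up to 8.98 CPM) and 22.6 CPM in G2/M-leaning cells. These 3 genes rest on few UMIs in S-leaning and G2/M-leaning cells: 13 and 7 for Slc7a5, 9 and 3 for Dctd, 0 and 36 for Arhgap19.

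Against cycling Foxp3-positive cells, most cell cycle genes of cycling Foxp3-negative cells lay within 2-fold, while lineage genes stood further apart. Of 5614 measured genes 119 (2.12%) were 2-fold or more higher in the Foxp3-negative cells and 99 (1.76%) were lower by that much. No gene of the licensing, fork, nucleotide or histone lists passed 2-fold, 1 of 35 kinetochore genes and 2 of 33 spindle genes were lower, and the medians of these lists lay between −0.36 and 0.15. Ratios above 0 were found for 2 of 35 kinetochore, 3 of 33 spindle and 7 of 33 histone genes, but for 14 of 19 licensing genes. Above the score limit of 12 UMIs lay 76.2% of cycling Foxp3-negative (72.9 to 79.3%) and 87.7% of cycling Foxp3-positive cells (84.6 to 90.4%). Pclaf stood at 622 CPM in Foxp3-negative and 589 CPM in Foxp3-positive cycling cells, a ratio of 1.06 (0.971 to 1.15). Aurka, the mitotic kinase Aurora A, had 34.9 CPM in Foxp3-negative and 72.5 CPM in Foxp3-positive cycling cells, 2.08-fold lower (1.54 to 2.83). The groups were divided by Foxp3, and 11 of 14 regulatory T cell genes were lower, with a median log2 ratio of −1.99. Ikzf2, encoding Helios, had 149 CPM in Foxp3-negative and 723 CPM in Foxp3-positive cycling cells, 4.85-fold lower (4.28 to 5.52), and Il2ra 45.4 CPM in Foxp3-negative and 219 CPM in Foxp3-positive cycling cells. Klrg1, a receptor of terminally differentiated T cells, was 7.21-fold lower (4.72 to 11.4), and Areg, the tissue repair factor amphiregulin, 7.22-fold lower (4.27 to 12.9). Penk, encoding proenkephalin, had the lowest log2 ratio, with 7.16 CPM in Foxp3-negative and 63.0 CPM in Foxp3-positive cycling cells. Gzmb, granzyme B, was 4.87-fold lower (4.27 to 5.58).

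Of 18 Tfh genes 9 were higher than in cycling Foxp3-positive cells and 0 lower. Il21 had 27.7 CPM in Foxp3-negative and 1.89 CPM in Foxp3-positive cycling cells, 14.7-fold higher (4.77 to 73.1). Tcf7, a transcription factor of Tfh and memory cells, had 212 CPM in Foxp3-negative and 46.0 CPM in Foxp3-positive cycling cells, 4.61-fold higher (3.59 to 5.99). Cxcr5 was 2.78-fold higher (1.75 to 4.56) and Pdcd1 2.45-fold higher (1.82 to 3.34). Of 10 T helper 17 genes 7 were higher, among them Ccl20 with 103 of 104 and Il17a with 37 of 50 UMIs in 1 cycling Foxp3-negative cell. Cxcr6 was 2.50-fold higher (2.05 to 3.07), whereas Ccr2 was 2.44-fold lower (2.102 to 2.84). A cell whose Foxp3 transcript was not caught cannot be told apart from a cell without Foxp3. At least 2 of Il2ra, Ikzf2, Ctla4 and Tnfrsf18 were seen in 20.5% of cycling Foxp3-negative cells at 3000 UMIs, against 71.8% of cycling Foxp3-positive and 15.3% of non-cycling Foxp3-negative cells. The part of such cells in these ratios was not tested.

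**Figure D5:**
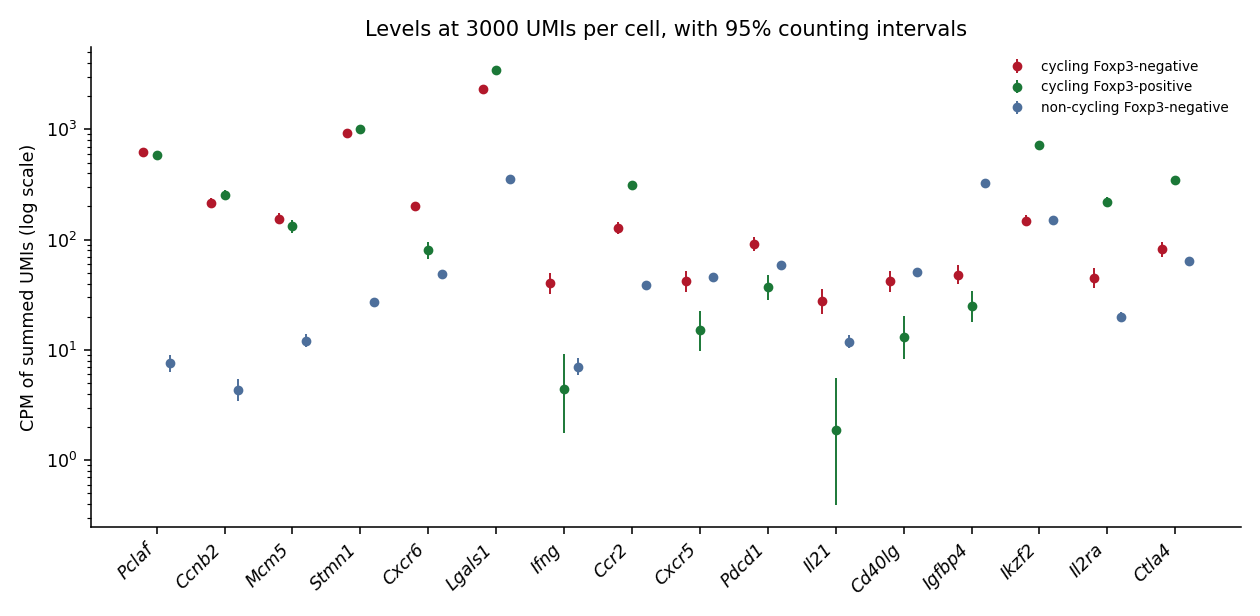
Levels in CPM of summed UMIs (log axis) for 16 genes in cycling Foxp3-negative, cycling Foxp3-positive and non-cycling Foxp3-negative T cells, thinned to 3000 UMIs, with exact 95% Poisson intervals. Pclaf lies close in both cycling groups, at 622 CPM in Foxp3-negative and 589 CPM in Foxp3-positive cycling cells, while Il21 stands at 27.7 CPM in cycling Foxp3-negative and 1.89 CPM in cycling Foxp3-positive cells.

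Markers of other cell types were present in a minority of members. A CD8 gene was seen in 3.87% of cycling and 5.08% of non-cycling cells at 3000 UMIs, and a gamma-delta receptor gene in 1.43% of cycling and 2.004% of non-cycling cells. A gate of B cell or myeloid markers held 8.60% of cycling and 6.58% of non-cycling cells at that depth. Before thinning, where cycling cells were deeper, it held 23.1% of cycling and 11.6% of non-cycling cells. The CD8 share before thinning was 12.3% of cycling and 7.55% of non-cycling cells. The 17 B cell markers summed to 680 CPM in cycling and 717 CPM in non-cycling cells, the 13 plasma cell markers to 245 CPM in cycling and 169 CPM in non-cycling cells, and the 16 myeloid and dendritic markers to 523 CPM in cycling and 274 CPM in non-cycling cells, with 3 of the 16 at 0 in cycling cells. The myeloid list also holds Ccr2, described above among the effector genes, which had its highest log2 ratio, 1.71. Its sum therefore does not measure other cell types alone. Among the plasma cell markers, 1 cycling cell held 42 of 58 UMIs of Jchain and 1 held 88 of 162 of Ighg1, and the median log2 ratio of the 4 measured ones, 0.80, was −0.06 without the top cell of each gene. Lyz2, a lysozyme of myeloid cells, had 138 CPM in cycling and 47.9 CPM in non-cycling cells, but 78.2% of its UMIs in cycling cells lay in 5 cells, and its log2 ratio of 1.51 turned to −0.62 against the depth-matched reference. A single cycling cell held 1036 of the 1077 UMIs of granulocyte genes. The cycling cell with most UMIs of a gene held 427 of 437 for S100a9, 361 of 381 for S100a8, 105 of 107 for Ngp, 83 of 89 for Camp and 54 of 57 for Lcn2, genes that rank among the highest against cycling Foxp3-positive cells. Without the cells that held a marker UMI of another type, 571 genes were higher and 132 lower in cycling than in non-cycling cells.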

How the data were processed

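RNA of sorted mouse T cells was captured with a version 2 kit of 10x Genomics for 3′ ends, per the labels' protocols. The deposited values are UMI counts for each gene in each barcode. The file headers name Cell Ranger 3.1.0, whereas the submitters' processing notes name Cell Ranger 2.1.0 and the builds mm9 and mm10 with no role given. The 10 other samples were not analysed here. The members and the gene lists were chosen with earlier results of these data known.

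The library held 106127466 UMIs, and a barcode 500 to 78924 with a median of 5673. Cells were thinned without replacement in a seeded draw, and the sums held 2094000 UMIs for cycling and 17967000 for non-cycling cells, where 3 UMIs are 1.43 and 0.167 CPM. The log2 scale adds 1 CPM and so shrinks ratios of low genes. Genes needed 20 CPM in a group and a 2-fold ratio of these values. Intervals are Poisson for levels, conditional binomial for ratios and Clopper-Pearson for shares. The calculation was tested on simulated counts. B cells were 465 barcodes with a UMI of both Cd79a and Ms4a1 and none of Cd3d, Cd3e or Cd3g. The doublet caller of scanpy 1.11.5 marked 0 of 13190 cells at a limit of 0.572 and so did not work, and the 10% highest scores were left out as an alternative.

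Genes were named by a rule: the rule genes, the 12 highest and 12 lowest log2 ratios, the 12 highest outside the cell cycle lists, up to 5 genes per list, the 8 highest and 8 lowest against Foxp3-positive cells, the 6 most different in each direction between S-leaning and G2/M-leaning cells, and Sostdc1, Cd4, Cxcr5, Pdcd1, Il21 and Bcl6, leaving out gene models, receptor segments and mitochondrial genes. Some genes that the rule names, and cell gates that use them, are not reported here. Aurka, Ikzf2 and Trac, and values of named genes in a comparison other than the one that named them, were chosen after their values were seen. Python 3.11.15, numpy 2.4.6, scipy 1.17.1, pandas 2.3.3 and matplotlib 3.10.9 were used.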

Additional observations from a re-analysis of the deposited data

How the results depend on the processing

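Without replicates, these values show only how far the choices move each result. No paired analysis was possible because all cells came from 1 library and no result came from a test. The share of cycling cells, 8.15%, was 5.56% with the rule applied after thinning to 3000 UMIs, 5.36% in a second draw, 4.23% at 2000 UMIs, 5.37% with at least 3 rule genes, 6.83% without cells that held a marker UMI of another type and 10.9% among cells with under 5% mitochondrial UMIs. The 612 higher genes became 367 at 50 CPM and 1164 with no filter on low levels. The 126 lower genes became 55 at 50 CPM, 594 with no filter, 245 without thinning, 217 with scaling by the median of gene ratios, 385 with at least 3 rule genes, 249 with the rule applied after thinning and 194 under 5% mitochondrial UMIs. The 218 genes that differed from cycling Foxp3-positive cells became 136 without thinning, 89 at 50 CPM and 1420 with no filter. The S-leaning share, 19.6%, was 16.4% without thinning, 15.5% with the rule applied after thinning and 34.96% with scores minus their non-cycling mean. Among named genes, the log2 ratio of Jchain turned to −0.000175 with at least 3 rule genes, −0.10 with the rule after thinning, −0.47 under 5% mitochondrial UMIs, −0.18 without cells with other markers and −0.0432 without its top cell. Ighg1 turned to −0.12 with at least 3 rule genes, −0.20 under 5% mitochondrial UMIs, −0.31 without cells with other markers and −0.0586 without its top cell. Lyz2 turned to −0.62 against the depth-matched reference and Ccl20 to −0.0226 without its top cell. In these ratios a top cell was left out of the cycling group alone. The cause of these changes was not tested. Of the 152 named genes past 2-fold 115 stayed past it under every alternative run. The alternatives without a gene's top cell, with scores minus their non-cycling mean and with other class boundaries, and the score limit used to check the label, were chosen after seeing the data. Thinning to 3000 UMIs limits what low genes such as Sostdc1 can show.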
